A study of Mus musculus with 6 samples.

Results

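The genes described here encode enzymes of the tricarboxylic acid (TCA) cycle: Cs, Idh3a, Idh3b, Idh3g, Ogdh, Dlst, Suclg1, Fh1 and Mdh2. They were chosen by symbol, all 9 were found among the 26469 gene rows of the table, and all 9 were among the 18323 genes tested after genes with low counts were set aside. RNA was measured in 6 bulk cultures of mouse splenic CD4+ T cells, 3 mutant and 3 control, in libraries depleted of ribosomal RNA. Mutant cells came from Sf3b1K700E/fl mice that also carried Cd4Cre and are labelled Sf3b1 mutation; Sf3b1 encodes a core splicing factor, and K700E is a change found in human cancers. Control cells came from Sf3b1K700E/fl mice without Cd4Cre and are labelled WT, so both groups carry the conditional allele and differ in the recombinase, which acts in T lineage cells from their development in the thymus onwards. All cultures started from sorted naive CD4+ cells and were held for 36 h in TGFβ (5 ng/ml) together with hamster anti-CD3 and anti-CD28, the stimulus for T cell activation, and with blocking antibodies against IFNγ and IL-4; this mixture steers cells towards the regulatory T cell fate. The labels give neither the age of the mice nor the number of animals behind the samples, so p-values reflect sample-to-sample spread that may be partly technical.

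The TCA cycle oxidises acetyl groups in the mitochondrial matrix. It hands electrons to the respiratory chain and supplies citrate, 2-oxoglutarate and other intermediates for lipid, amino acid and nucleotide synthesis and for enzymes that modify chromatin. Naive T cells run it at a low rate, and activation raises mitochondrial mass and the flow of glucose and glutamine carbon through it. In regulatory T cells, oxidative metabolism is known as a larger part of energy supply than in effector T cells.

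In mutant cells the mean level was below that of control cells for 8 of the 9 genes, and above it for Idh3b. The median log2 fold change, mutant minus control, was -0.17 over the 9 genes, against 0.024 over all genes tested, of which 47.1% had a negative value. By edgeR's quasi-likelihood test 0 members passed, with adjusted p-values between 0.645 (Suclg1) and 0.898 (Ogdh); over all genes 0 of 18323 (0%) passed. At an unadjusted p under 0.05, 1 member (Suclg1) and 1396 genes (7.62%) were found. limma-voom also called 0 genes, and DESeq2 called 99, which is 0.633% of the 15628 genes it adjusted, none of them a member. Suclg1 was the one member whose 3 mutant libraries all lay below the 3 control libraries, a pattern shown by 7.48% of all genes tested; no member showed the opposite pattern, which 6.6% of genes did. With 1 library left out at a time, the median log2 fold change of the 9 genes ran from -0.28 without mutant 3 to -0.064 without control 2, and it was -0.092 without mutant 1. In bulk RNA, fewer cells expressing a gene and less of its RNA per cell cannot be told apart.

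**Figure D1:**
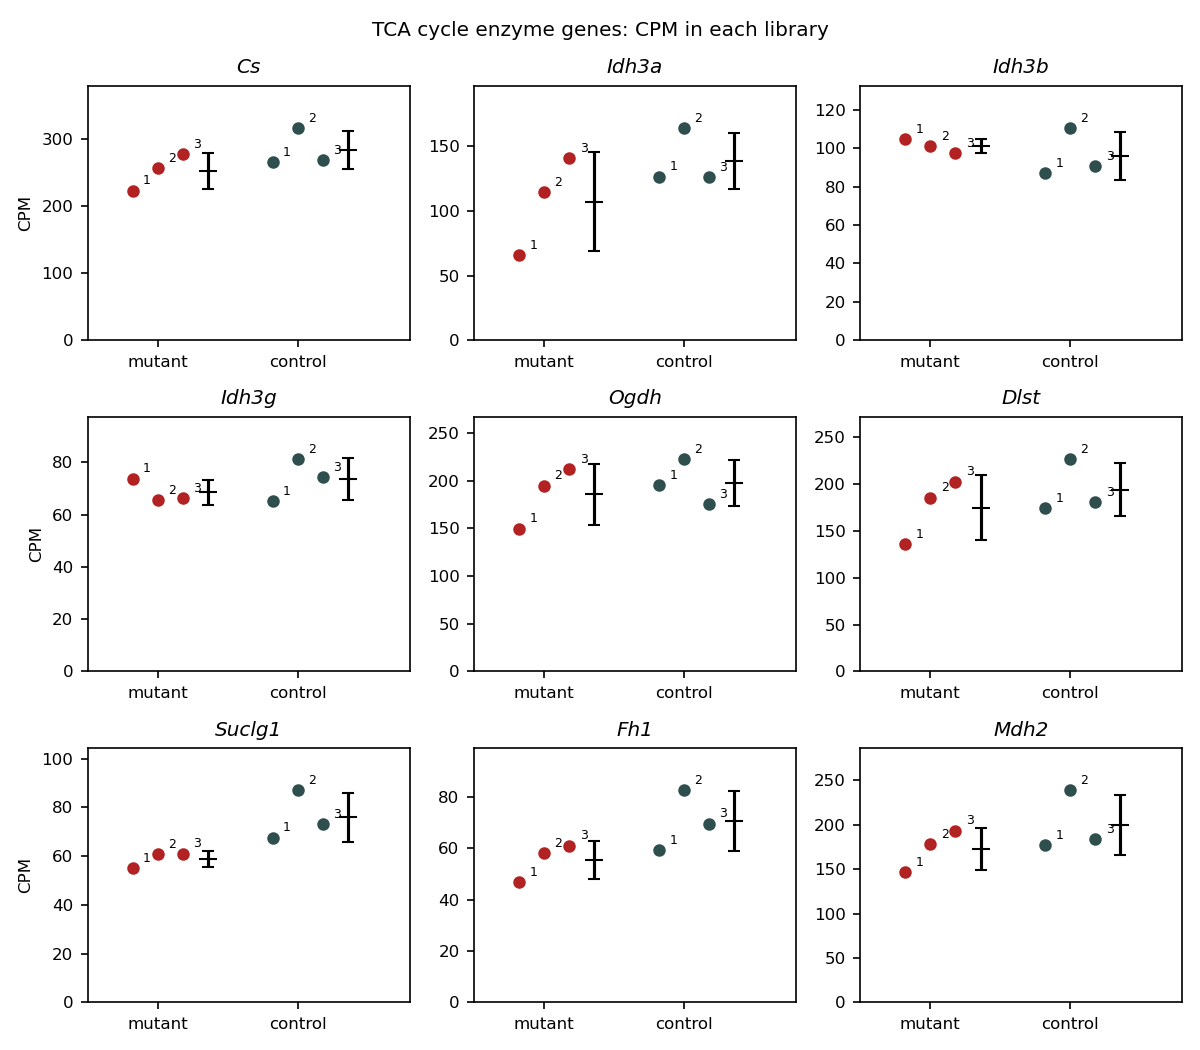
Counts relative to the scaled library total (CPM, y axis from 0) of each TCA cycle enzyme gene in the 3 mutant (red) and 3 control (dark) libraries; numbers beside points are replicate numbers, and the black mark with its bar is the mean ± SD (n = 3). Suclg1 is the panel in which the groups do not overlap, and control 2 is the highest point in all 9 panels.

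The libraries differed in ways that touch these genes. Total counts were 34524433, 34689302 and 36867313 in mutant 1, 2 and 3, and 33633196, 43928723 and 36068040 in control 1, 2 and 3, so control 2 was the deepest. The 5 activation genes fixed as a list (Il2ra, Irf4, Myc, Tfrc and Cd69) summed to 3520, 4970 and 4323 CPM in mutant 1, 2 and 3 and to between 5364 and 5729 CPM in control libraries. Irf4, Myc and Tfrc were lower in every mutant library than in any control library, as were 7.48% of all genes tested, while Il2ra and Cd69 overlapped. None of the 5 passed edgeR's quasi-likelihood test, with adjusted p-values from 0.598 (Irf4) to 0.949 (Cd69). The libraries did not keep 1 order over the 5 genes: mutant 1 was the lowest for Irf4, Tfrc and Cd69, mutant 3 for Il2ra and mutant 2 for Myc, and control 2 was the highest of all for Il2ra and Tfrc but the lowest control for Irf4, Myc and Cd69. The 8 markers of CD4+ T cells were all detected and summed to between 2012 and 2913 CPM in mutant libraries and between 1735 and 2413 CPM in control libraries. Summed levels of B cell markers ran from 3.58 to 28.7 CPM in mutant and 1.89 to 4.12 CPM in control libraries, those of CD8+ T cells from 6.55 to 17.3 and from 5.81 to 40.3 CPM, and the myeloid, NK and erythroid lists were each below 4 CPM in every library; no marker was at 0 in every library. Sf3b1 itself was at 649, 592 and 639 CPM in mutant 1, 2 and 3 and at 632, 712 and 638 CPM in control 1, 2 and 3, and Anapc13, whose splicing the series title names, averaged 9.49 ± 0.75 CPM in mutant and 10.1 ± 1.30 CPM in control cells (SD, n = 3 each); counts per gene do not show the allele.

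Promoter sequence is shown for the pair of members with the largest mean differences after Idh3a (Suclg1 and Fh1) and for the 2 isocitrate dehydrogenase subunits that did not share the low value of mutant 1 (Idh3b and Idh3g). The windows are the 250 bases before the RefSeq start on the gene's strand, from RefSeq on build GRCm38.p6, which is not the build of the counts. They are chr6:73248255-73248504 (plus strand) for Suclg1, chr1:175625636-175625885 (minus strand) for Fh1, chr2:130284452-130284701 (minus strand) for Idh3b and chrX:73786898-73787147 (minus strand) for Idh3g. Capitals mark matches on either strand to any of 5 promoter motifs. The GC box, which binds SP1, was searched as GGGCGG. The box bound by the NF-Y factor was searched as CCAAT. The core bound by ETS factors such as GABPA was searched as CCGGAAG. The E-box, which binds MYC and USF factors, was searched as CACGTG. The core bound by NRF1, a regulator of nuclear genes for mitochondria, was searched as GCATGCG. No marked matches overlap in these 4 windows.
Suclg1: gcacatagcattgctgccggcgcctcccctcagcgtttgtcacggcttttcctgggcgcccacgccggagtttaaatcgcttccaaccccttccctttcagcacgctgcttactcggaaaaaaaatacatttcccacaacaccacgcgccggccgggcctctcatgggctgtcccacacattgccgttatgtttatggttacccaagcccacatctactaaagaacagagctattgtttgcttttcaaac
Fh1: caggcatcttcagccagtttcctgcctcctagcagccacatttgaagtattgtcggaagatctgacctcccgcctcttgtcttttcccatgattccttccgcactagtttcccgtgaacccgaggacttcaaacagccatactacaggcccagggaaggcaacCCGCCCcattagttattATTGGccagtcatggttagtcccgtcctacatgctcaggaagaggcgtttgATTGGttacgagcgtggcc
Idh3b: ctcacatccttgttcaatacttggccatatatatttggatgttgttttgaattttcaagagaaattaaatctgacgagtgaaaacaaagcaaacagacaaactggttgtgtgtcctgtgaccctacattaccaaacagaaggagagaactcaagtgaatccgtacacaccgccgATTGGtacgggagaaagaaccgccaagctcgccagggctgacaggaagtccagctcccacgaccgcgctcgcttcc
Idh3g: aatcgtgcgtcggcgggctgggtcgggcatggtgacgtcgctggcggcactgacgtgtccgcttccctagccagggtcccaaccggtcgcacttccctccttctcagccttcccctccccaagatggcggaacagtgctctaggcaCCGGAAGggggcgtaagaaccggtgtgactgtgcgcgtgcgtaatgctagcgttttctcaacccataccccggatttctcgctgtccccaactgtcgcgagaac
The Suclg1 window held none of the motifs, while that of Fh1 held a GC box and 2 NF-Y boxes, that of Idh3b 1 NF-Y box and that of Idh3g an ETS core. The RefSeq table matched 8 of the 9 members, Idh3a being the other, with 13 windows of which 6 belong to Ogdh and partly overlap. A GC box was found in 6 of the 13 windows (5 of the 8 genes) and an NF-Y box in 7 (4 genes), against 32.7% and 33.8% of all 32851 promoter windows. The overlapping windows of Ogdh are counted separately here, so the 13 windows are not independent. An ETS core was found in 1 window, that of Idh3g (6.91% of all windows). Ogdh alone held an E-box, in 3 windows (6.02% of all windows), and an NRF1 core, in 2 windows (3.02%).

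Citrate synthase, encoded by Cs, opens the cycle by joining acetyl-CoA to oxaloacetate. Cs was at 223, 257 and 277 CPM in mutant 1, 2 and 3 and at 265, 316 and 269 CPM in control 1, 2 and 3. Mutant 1 was the lowest and control 2 the highest of the 6, and mutant 3 lay above 2 of the control libraries. This gave a log2 fold change of -0.17 ± 0.15 (SE; 95% interval -0.51 to 0.17), which was -0.072 without mutant 1 and -0.084 without control 2.

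Isocitrate dehydrogenase 3, the NAD-dependent enzyme that forms 2-oxoglutarate, is built of catalytic α subunits (Idh3a) with β (Idh3b) and γ (Idh3g) subunits that regulate it. The 3 transcripts differed in how the mutant libraries were placed. Idh3a was at 65.9, 114 and 141 CPM in mutant 1, 2 and 3, against 126.5, 164 and 126 CPM in control 1, 2 and 3. The highest mutant library was 2.14 times the lowest, compared with 1.297 times among controls, and mutant 3 lay within the control range. Its log2 fold change was the most negative of the 9, at -0.37 ± 0.27 (SE), and had the widest 95% interval, -0.999 to 0.25. Without mutant 1 it was -0.11, without control 2 it was -0.24, and without mutant 3 it was -0.63.

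Idh3b was at 105, 101 and 97.5 CPM in mutant 1, 2 and 3, and at 87.0, 110.2 and 90.7 CPM in control 1, 2 and 3. All 3 mutant libraries lay inside the control range, and the log2 fold change was 0.075 ± 0.14 (SE; 95% interval -0.25 to 0.40). Without control 1 it was 0.004. Without control 2 it was 0.18, and every mutant library was then above both remaining controls, as in 13.2% of all genes tested in that setting. Idh3g was at 73.8, 65.5 and 66.2 CPM in mutant 1, 2 and 3, and at 65.2, 81.2 and 74.3 CPM in control 1, 2 and 3. Here mutant 1 was the highest of the mutant libraries, and all 3 again lay inside the control range (log2 fold change -0.10 ± 0.14 SE; 95% interval -0.43 to 0.22). The value was -0.19 without control 1, -0.050 without mutant 2 and -0.028 without control 2. Without control 1 every mutant library was below the remaining controls, as in 10.6% of all genes tested in that setting.

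**Figure D2:**
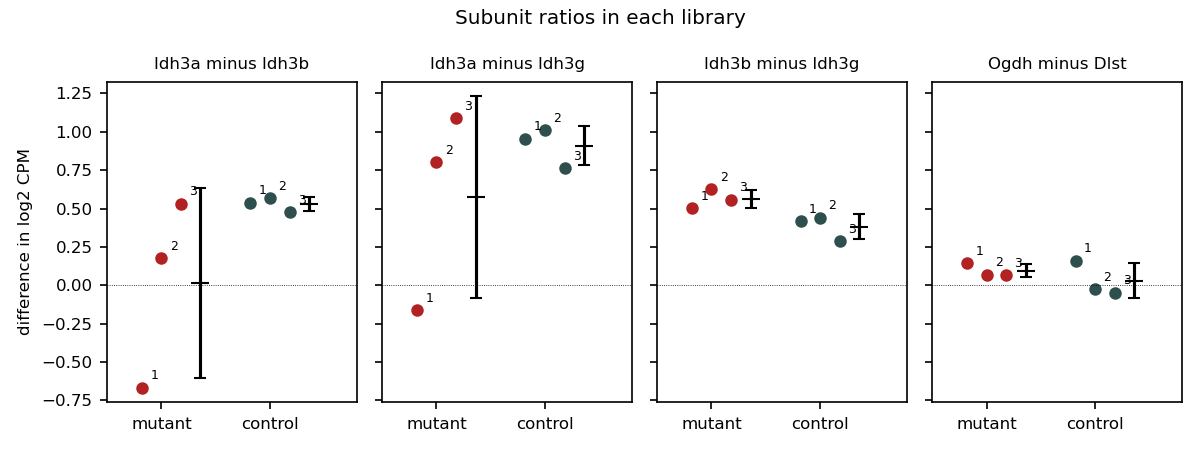
Difference in log2 CPM between subunits of 1 enzyme (y axis) in each mutant (red) and control (dark) library; numbers are replicate numbers, and the black mark with its bar is the mean ± SD (n = 3). Idh3a minus Idh3b is at -0.67 in mutant 1 and between 0.48 and 0.57 in the control libraries.

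Subunit ratios need no scaling between libraries. The difference in log2 CPM between Idh3a and Idh3b was -0.67, 0.18 and 0.53 in mutant 1, 2 and 3, and 0.54, 0.57 and 0.48 in control 1, 2 and 3. Mutant 1 and mutant 2 lay below all controls and mutant 3 within them. The Idh3a count was thus 0.629 times the Idh3b count in mutant 1 and 1.39 to 1.49 times in the controls. The means differed by -0.52 on the log2 scale, at an exact two-sided permutation p = 0.2 (adjusted p = 0.4 over the 4 ratios tested), in a design whose smallest p is 0.1. Without mutant 1 this difference was -0.17. Idh3a minus Idh3g was -0.16, 0.80 and 1.09 in mutant 1, 2 and 3 and ran from 0.77 to 1.01 in controls (difference of means -0.33; exact p = 0.7, adjusted p = 0.7), and the difference of means was 0.036 without mutant 1. Idh3b minus Idh3g was 0.50, 0.63 and 0.56 in mutant 1, 2 and 3 and 0.42, 0.44 and 0.29 in control 1, 2 and 3, the 1 ratio of the 4 without overlap, with an SD of 0.060 in mutant and 0.083 in control libraries. The means of this ratio differed by 0.18, at the smallest exact p of 0.1 (adjusted p = 0.4), and by 0.13 to 0.21 when any single library was left out.

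The 2-oxoglutarate dehydrogenase complex makes succinyl-CoA; Ogdh encodes its first subunit, the decarboxylase, and Dlst its second, the lipoate-bearing succinyltransferase. Ogdh was at 150, 195 and 212 CPM in mutant 1, 2 and 3, and at 195, 222 and 175 CPM in control 1, 2 and 3. Dlst was at 136, 186 and 203 CPM in mutant 1, 2 and 3, and at 175, 226 and 181 CPM in control 1, 2 and 3. For both genes mutant 1 was the lowest library of all and mutant 2 and 3 lay in the control range, Dlst above 2 of the 3 controls in each. Log2 fold changes were -0.089 ± 0.17 for Ogdh (95% interval -0.49 to 0.31) and -0.15 ± 0.19 for Dlst (SE; 95% interval -0.59 to 0.29), and without mutant 1 they were 0.056 and 0.014. Without control 2 they were 0.002 for Ogdh and -0.028 for Dlst, and without mutant 3 they were -0.20 and -0.28. Ogdh minus Dlst averaged 0.094 ± 0.043 in mutant and 0.029 ± 0.11 in control libraries on the log2 scale (SD, n = 3 each; exact two-sided permutation p = 0.4, adjusted p = 0.533).

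Suclg1 encodes the α subunit of succinyl-CoA ligase, which both the ATP-specific and the GTP-specific enzyme use. It was at 55.0, 60.8 and 61.0 CPM in mutant 1, 2 and 3, against 67.6, 87.0 and 73.2 CPM in control 1, 2 and 3. The mutant libraries were close together, the highest being 1.11 times the lowest, and all lay below every control. The log2 fold change was -0.36 ± 0.15 (SE; 95% interval -0.70 to -0.029), with an unadjusted p = 0.0366 and an adjusted p = 0.645 by edgeR's quasi-likelihood test. It ran from -0.45 without control 1 to -0.26 without control 2. Of all genes tested, 11.4% had a more negative log2 fold change.

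Fumarase, encoded by Fh1, hydrates fumarate to malate. Fh1 was at 46.9, 58.1 and 61.0 CPM in mutant 1, 2 and 3, and at 59.4, 82.6 and 69.7 CPM in control 1, 2 and 3. The groups touched only through mutant 3 and control 1, which differed by less than the spread within either group. Its log2 fold change was -0.35 ± 0.17 (SE; 95% interval -0.75 to 0.053), and was -0.22 without control 2 and -0.23 without mutant 1. It was -0.47 without control 1, when the groups no longer overlapped, as in 10.6% of all genes tested, which were then lower without overlap. Mdh2 encodes mitochondrial malate dehydrogenase, which closes the cycle by remaking oxaloacetate. It was at 147, 178 and 193 CPM in mutant 1, 2 and 3, and at 177, 239 and 184 CPM in control 1, 2 and 3. Mutant 2 lay between control 1 and control 3 and mutant 3 between control 3 and control 2, and the log2 fold change of -0.21 ± 0.17 (SE; 95% interval -0.61 to 0.19) was -0.064 without control 2 and -0.092 without mutant 1.

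**Figure D3:**
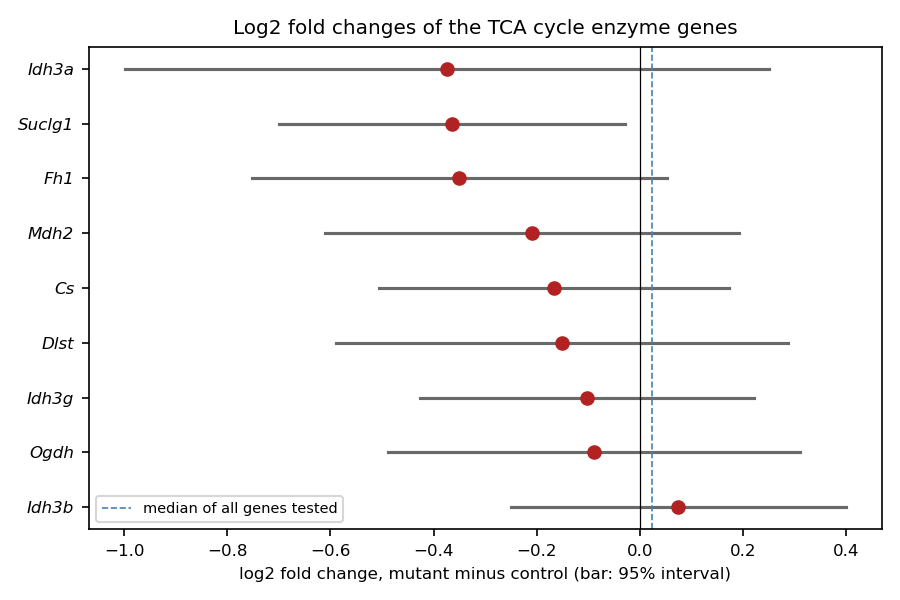
Log2 fold change, mutant minus control (x axis), of each TCA cycle enzyme gene with its 95% interval (bar) from edgeR's quasi-likelihood fit; the dashed line is the median of all genes tested (0.024). The points run from -0.37 for Idh3a to 0.075 for Idh3b, and the interval of Suclg1 alone lies below 0, with no adjustment for the number of genes tested.

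Averaged over the 9 genes, mutant 1 lay lowest and control 2 highest. The mean log2 CPM of the 9 genes relative to the control mean was -0.40, -0.14 and -0.051 in mutant 1, 2 and 3, and -0.14, 0.21 and -0.074 in control 1, 2 and 3. The control mean includes control 2, which makes its own deviation smaller and the mutant deviations more negative. Centred on all 6 libraries, the mean was -0.302 in mutant 1 and 0.309 in control 2. Mutant 2 and 3 lay close to control 1 and 3, with mutant 1 below and control 2 above. Single genes could differ from this: Suclg1 was at -0.31 in both mutant 2 and mutant 3, against -0.16, 0.204 and -0.045 in control 1, 2 and 3. The summed level of the 9 genes was 1002, 1216 and 1312 CPM in mutant 1, 2 and 3, and 1218, 1528 and 1243 CPM in control 1, 2 and 3. Mutant 1 was the lowest of all libraries for 7 of the 9 genes, as it was for 29.2% of all genes tested, the exceptions being Idh3b and Idh3g. Control 2 was the highest for 9 of 9, as it was for 18.9% of all genes tested. The TMM factor that scales the library total was 0.927 in control 2 and 0.999 to 1.026 in the other libraries. A smaller factor raises every CPM of its library, so the place of control 2 for single genes depends in part on this scaling. Within control 2 the genes were raised evenly, by 0.15 (Idh3g) to 0.27 (Mdh2) on the log2 scale over their control mean. Within mutant 1 they were spread from -1.06 for Idh3a to 0.13 for Idh3b, with Idh3g at 0.012 and the remaining 6 genes between -0.57 (Fh1) and -0.34 (Cs). Control 2 was also the deepest library, whereas mutant 1 did not stand apart in depth. Mutant 1 had the smallest share of counts in mitochondrially encoded genes, 1.90%, against 1.99% in control 1 and up to 2.35% in mutant 2 and 3. It also had the highest sum of CD4+ T cell markers, 2913 CPM, against at most 2413 CPM (control 2) elsewhere. The summed level of the activation genes was lowest in mutant 1 and highest in control 2. Single activation genes differed from the sum: control 2 was the lowest control for Irf4, Myc and Cd69, and mutant 1 was not the lowest library for Il2ra and Myc. The part of depth, scaling, activation, mitochondrial share and CD4+ marker level in these values was not tested.

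**Figure D4:**
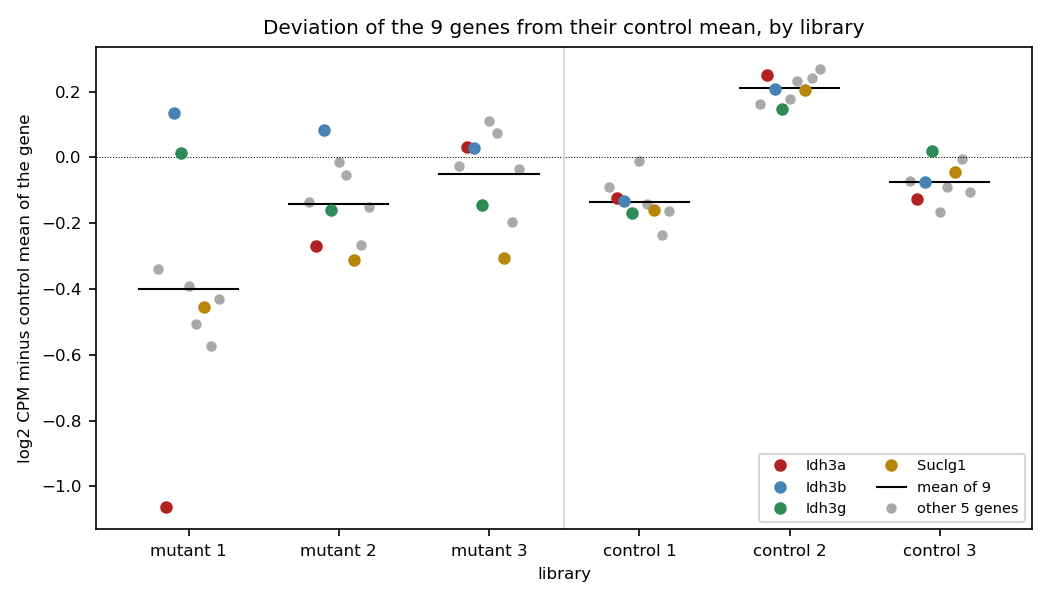
Log2 CPM of each gene minus its control mean (y axis) in the 6 libraries (x axis); points are genes, 4 of them coloured, and the black line is the mean of the 9. The mean is -0.40 in mutant 1 and 0.21 in control 2, and between -0.14 and -0.051 in the other 4 libraries.

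To compare levels between genes, CPM was divided by the length of all annotated exons of the gene (GENCODE M21, matched on gene ID), which overstates length where minor transcripts are annotated. On this scale, in CPM per kb, Mdh2 had the highest mean level, 48.5 ± 6.64 in mutant and 56.1 ± 9.48 in control cells (SD, n = 3 each), followed by Cs at 43.7 ± 4.73 and 49.0 ± 4.89. The mean ± SD ranges of Mdh2 and Cs overlapped in each group, while Cs lay below Mdh2 in every library. Ogdh was at 34.0 ± 5.91 in mutant and 36.2 ± 4.35 in control cells. In mutant cells the 3 isocitrate dehydrogenase subunits were at 29.6 ± 1.07 (Idh3b), 25.4 ± 1.71 (Idh3g) and 21.1 ± 7.50 (Idh3a), while in control cells they were nearly equal at 28.0 ± 3.64, 27.2 ± 2.97 and 27.4 ± 4.25. Below them came Dlst at 18.3 ± 3.64 in mutant and 20.3 ± 2.95 in control cells, Fh1 at 16.3 ± 2.19 and 20.8 ± 3.43, and Suclg1 at 12.8 ± 0.73 and 16.4 ± 2.16. This order is that of the means: in mutant 1, Idh3a (13.0) lay below Dlst (14.2) and Fh1 (13.8). The mean ± SD ranges of Fh1 and Dlst overlapped in each group. Dlst lay above Fh1 in every mutant library, and their order varied between control libraries.

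The remaining enzymes and subunits of the cycle also had lower means in mutant cells. Of 8 listed genes (Suclg2, Sucla2, the 4 succinate dehydrogenase subunits, Dld and Dhtkd1) all 8 were tested, with a lower mean for each, 0 passed edgeR's test, 1 was without overlap (7.48% of all genes tested lay lower without overlap) and the median log2 fold change was -0.175. This median was -0.063 without control 2 and -0.10 without mutant 1. Dld, the lipoamide dehydrogenase shared by the 2-oxoglutarate and pyruvate complexes, was at 83.3, 112 and 112 CPM in mutant 1, 2 and 3 and at 124, 138 and 127 CPM in control 1, 2 and 3, and was the one without overlap. Sdha, the flavoprotein subunit of succinate dehydrogenase, was at 214, 238 and 236 CPM in mutant 1, 2 and 3 and at 236, 309.8 and 242 CPM in control 1, 2 and 3, with mutant 1 lowest and control 2 highest. Suclg2, the GTP-specific partner of Suclg1, averaged 49.5 ± 10.2 CPM in mutant and 59.1 ± 10.3 CPM in control cells, and Dhtkd1, an Ogdh relative of lysine breakdown, was under 0.6 CPM in every library. As for the 9 members, control 2 was the highest library for most of this list, 7 of 8, but mutant 1 was the lowest for only 4.

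Around the entry of pyruvate, 12 of 13 tested genes had a lower mean in mutant cells, 0 passed, 3 lay lower without overlap (7.48% of all genes did) and the median log2 fold change was -0.14, or -0.21 without control 1 and -0.086 without control 2. Pdk1, a kinase that switches off pyruvate dehydrogenase, averaged 77.9 ± 24.8 CPM in mutant and 124 ± 18.4 CPM in control cells. The phosphatases that act against the kinases were lower in mean as well, Pdp2 at 48.8 ± 15.1 in mutant and 73.0 ± 5.29 CPM in control cells, and Pdp1 at 13.0 ± 3.09 and 17.8 ± 1.87 CPM. Dlat, the second subunit of pyruvate dehydrogenase, was at 54.9 ± 14.3 CPM in mutant and 72.1 ± 5.99 CPM in control cells. Dlat and both phosphatase genes were the ones without overlap. Adjusted p-values of these 4 genes ran from 0.644 to 0.712 in edgeR.

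Lipoate is attached to Dlst and Dlat, and all 5 genes of its synthesis and attachment had lower means in mutant cells (median log2 fold change -0.29, 0 passed, 2 without overlap against 7.48% of all genes). The median was -0.10 without control 2 and -0.13 without mutant 2. Mcat, which makes the malonyl carrier of mitochondrial fatty acid synthesis, averaged 11.0 ± 0.82 CPM in mutant and 13.7 ± 1.03 CPM in control cells, and the lipoyltransferase gene Lipt1 was at 5.84 ± 1.17 and 7.54 ± 0.37 CPM. Gcsh, a lipoate-bearing protein of glycine cleavage, was at 31.4 ± 6.13 CPM in mutant and 38.4 ± 8.26 CPM in control cells, and the lipoate synthase gene Lias at 36.4 ± 2.23 and 39.8 ± 1.90 CPM. The 4 assembly factors of succinate dehydrogenase were split, 2 lower and 2 higher, with 0 passing and a median log2 fold change of 0.028, which turned to -0.033 without control 1 and -0.022 without mutant 1 and was 0.10 without control 2. Sdhaf3 was at 5.13 ± 0.66 CPM in mutant and 6.76 ± 0.27 CPM in control cells, the 1 gene of the 4 without overlap (7.48% of all genes), whereas Sdhaf2 was at 54.3 ± 2.67 and 48.4 ± 4.68 CPM. Sdhaf1 was at 34.65 ± 10.05 CPM in mutant and 28.7 ± 2.83 CPM in control cells, and Sdhaf4 at 5.16 ± 0.32 and 5.57 ± 0.57 CPM.

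Among 14 genes of cytosolic and mitochondrial side routes, 13 had a lower mean in mutant cells, 5 had an unadjusted p under 0.05 (7.62% of all genes did), 4 were without overlap (7.48% of all genes), 0 passed and the median log2 fold change was -0.24. The median was -0.435 without mutant 3 and -0.14 without control 2. Idh2, the NADP-dependent mitochondrial isocitrate dehydrogenase, was at 29.2, 33.4 and 32.8 CPM in mutant 1, 2 and 3, against 45.5, 44.5 and 46.4 CPM in control 1, 2 and 3. Mutant 1 was the lowest library, all mutant libraries lay below the controls, and the log2 fold change was -0.52 ± 0.13 (SE; adjusted p = 0.598 by edgeR). Its cytosolic counterpart Idh1 averaged 9.18 ± 3.47 CPM in mutant and 15.4 ± 1.25 CPM in control cells. Acly, which splits exported citrate into acetyl-CoA for lipid synthesis, was at 234, 327 and 317 CPM in mutant 1, 2 and 3 and at 392, 424 and 412 CPM in control 1, 2 and 3. Got1, the cytosolic aspartate aminotransferase of the malate-aspartate shuttle, averaged 72.3 ± 6.10 CPM in mutant and 96.3 ± 3.17 CPM in control cells. These 4 genes were the ones without overlap, with adjusted p-values from 0.598 to 0.645.

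Genes of mitochondrial biogenesis and import had lower means in 12 of 13 tested members, with 0 passing, 3 without overlap (7.48% of all genes) and a median log2 fold change of -0.22. Mutant 1 was the lowest library for 11 of the 13, and the median was -0.075 without mutant 1, -0.145 without control 2 and -0.49 without mutant 3. Tfb1m, a methyltransferase of mitochondrial ribosomal RNA, averaged 7.07 ± 1.29 CPM in mutant and 11.3 ± 0.18 CPM in control cells. Tfam, which packages mitochondrial DNA, was at 54.0 ± 4.40 CPM in mutant and 63.6 ± 0.55 CPM in control cells, and the coactivator gene Ppargc1b at 4.53 ± 0.93 and 6.57 ± 0.73 CPM. The matrix chaperone gene Hspa9 was at 355, 627 and 853 CPM in mutant 1, 2 and 3, and at 845, 869 and 810 CPM in control 1, 2 and 3, so mutant 3 reached the control range. The lists were chosen with earlier results of these data known, and no list was tested as a set.

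**Figure D5:**
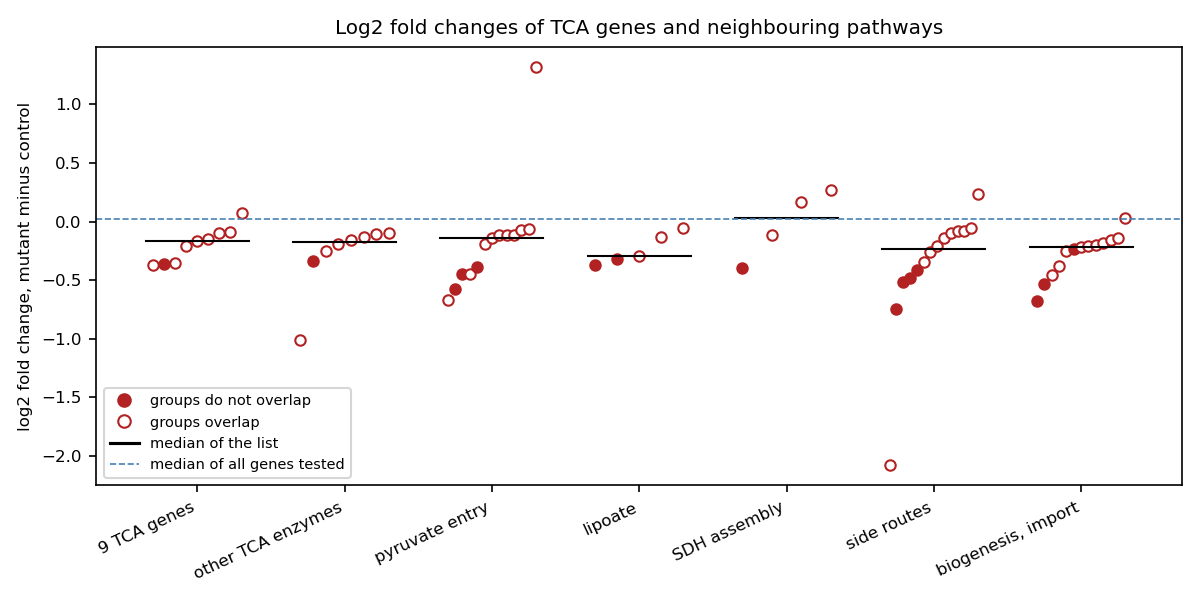
Log2 fold change, mutant minus control (y axis), of each tested gene (point) in the 9 TCA genes and 6 neighbouring lists (x axis); filled points are genes whose mutant and control libraries do not overlap, black lines are list medians and the dashed line the median of all genes tested. Medians run from -0.29 for lipoate genes to 0.028 for succinate dehydrogenase (SDH) assembly factors.

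The profile of the members over the 6 libraries, as the mean of their centred log2 CPM, was set against 8040 tested genes with a mean log2 CPM of at least 4 outside the lists. The 5 genes closest to it were Samm50, Ndufa9, Nmt1, Atp5pb and Drg1, with root mean square differences of 0.0221 to 0.0282 on the log2 scale over the 6 libraries. Samm50 encodes a protein of the outer mitochondrial membrane, Ndufa9 a subunit of complex I and Atp5pb one of ATP synthase, while Nmt1 is an N-myristoyltransferase and Drg1 a GTP-binding protein. Samm50 was at 74.4, 85.5 and 95.4 CPM in mutant 1, 2 and 3 and at 88.4, 111 and 92.5 CPM in control 1, 2 and 3. These genes were chosen for the likeness, so it is a description. Of the members themselves, Mdh2 (0.0324) and Cs (0.0353) lay closest to the common profile, and Idh3a (0.252), Idh3b (0.194) and Idh3g (0.173) farthest from it.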

How the data were processed

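Per the submitters' processing notes, the authors used STAR 2.7.8a and Partek, with the mouse build named both as GRCm39 and as mm39. What each tool was used for, the annotation and any use of strand were not stated there. The values deposited by the authors are estimated counts for each gene without normalization; 57.8% are whole, and all were rounded to whole numbers. Total counts per library ran from 33633196 to 43928723, and mitochondrially encoded genes took 1.90% to 2.35%. Replicates of a group always differed by more than sampling noise (chi-square over its degrees of freedom, 18.6 to 176). The value was 139 for mutant 1 with mutant 2, 176 for mutant 1 with mutant 3 and 50.4 for mutant 2 with mutant 3. Among controls it ran from 18.6 to 58.5.

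Low genes were set aside by filterByExpr (minimum count 10), leaving 18323 genes with 99.92% of the counts, scaled by TMM in edgeR 4.0.16 (R 4.3.3) and compared, mutant minus control, by the robust quasi-likelihood test over the 6 samples with no covariate, with Benjamini-Hochberg adjustment over all genes tested and a threshold of 0.05. The standard error is the absolute log2 fold change over the square root of F, and intervals are 95%. CPM uses TMM-scaled totals; log2 CPM a prior count of 2. The members and lists were chosen with earlier results of these data known. The text names all members, the 4 genes of each list with the smallest p and the 5 genes closest in profile. Pdk4 and Ppargc1a were not tested for low counts, and 1 gene of the lists is not reported here. Alternatives were DESeq2 1.42.0, limma-voom 3.58.1, other scalings and filters, removal of small structural RNA and mitochondrial genes, a block for the replicate number and leaving out libraries. The procedure was tested on simulated data. Genome coordinates of the counted genes are not given, because the annotation used here was of another build.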

Additional observations from a re-analysis of the deposited data

How the results depend on the processing

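No member and no gene of the lists passed the threshold in any of the 16 settings that refitted them (adjusted p of members from 0.384 to 0.999). Over all genes, edgeR called 0 and DESeq2 99, with a threshold of 0.01 also giving 0 in edgeR, and leaving out a single library gave 0 each time. Other scalings, filters and limma-voom kept the sign of all 9 log2 fold changes. Other scalings and filters also left Suclg1 as the one member without overlap. For limma-voom overlap was read from the same CPM as in the main fit, so it could not differ. Leaving out a single library moved the number of members without overlap between 1 and 4 (4 without mutant 3, namely Cs, Idh3a, Suclg1 and Fh1, when 16.5% of all genes lay lower without overlap), and the median log2 fold change of the members between -0.28 and -0.064. With 1 library left out, the log2 fold change of Ogdh ran from -0.20 to 0.056 (without mutant 1; 0.002 without control 2) and that of Dlst from -0.28 to 0.014 (without mutant 1). Leaving out mutant 1 and control 2 together was chosen after seeing the data and removes the library lowest and the one highest for most members, so it moves the differences upwards by its construction and shows nothing about what they rest on. In it the median was 0.028 and 4 members were without overlap (Suclg1 lower, and Idh3b, Ogdh and Dlst higher, when 22.5% of all genes lay lower and 22.9% higher without overlap), with log2 fold changes of 0.013 for Cs, 0.028 for Idh3a, 0.15 for Ogdh, 0.139 for Dlst and 0.055 for Mdh2, while Suclg1 was at -0.20, Fh1 at -0.10 and Idh3g at -0.07. Differences of subunit ratios with 1 library left out ran from -0.77 to -0.17 for Idh3a minus Idh3b, from -0.59 to 0.036 for Idh3a minus Idh3g, from 0.13 to 0.21 for Idh3b minus Idh3g and from 0.026 to 0.13 for Ogdh minus Dlst. The causes were not tested. Correlations across genes between same-numbered mutant and control libraries, after centring each group, were -0.0477, -0.0669 and -0.0285. With 3 libraries a group, these values cannot show whether the numbers pair the samples. With the replicate number as a block 0 genes were called and the median of the members was -0.17. With 3 samples a group and a biological coefficient of variation of 0.297, small differences could not be resolved.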
